A study of Homo sapiens with 16 samples.

Results

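The PRMT5 inhibitor and the EZH2 inhibitor were compared directly with each other in MOLM-13 cells, an established line from acute myeloid leukaemia of monocytic type that carries an MLL fusion gene. The comparison takes the 4 libraries of cells given the PRMT5 inhibitor at 1 µM (PRMT5i) and the 4 libraries of cells given the EZH2 inhibitor at 1 µM (EZH2i), 8 of the 16 libraries of the study, and covers all genes. Both treatments lasted 4 days. The other 8 libraries came from cells given 0.005% DMSO (4 libraries) or both inhibitors together (4 libraries, here the combination) for the same time, and they entered no test of this comparison. No label gives the name of either compound, all groups are the same cell line, and the labels do not say whether replicates were grown separately, so that p-values reflect only how far these libraries differ, which may be technical. A positive difference means a higher level with PRMT5i, and the comparison alone does not say which of the inhibitors moved a gene, so DMSO levels are given beside the genes the results turn on.

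EZH2 is the catalytic subunit of polycomb repressive complex 2 (PRC2), which methylates lysine 27 of histone H3 and keeps developmental and lineage genes silent. PRMT5 is the main enzyme for symmetric dimethylation of arginine, with histones, the Sm proteins of the splicing machinery and other factors as substrates. Both enzymes are studied as drug targets in leukaemia, where they are linked to cell growth and to the block in myeloid maturation.

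Libraries held 33931922 to 48803485 expected counts with EZH2i and 40587374 to 51408799 with PRMT5i. The mitochondrial genome took 0.361% to 0.690% of them. The first principal component of the 8 libraries held 57.1% of the variance and placed the EZH2i libraries at −50.7 to −36.3 and the PRMT5i libraries at 37.3 to 46.2. The second, with 15.9%, spread the EZH2i libraries from −44.8 to 38.1 and the PRMT5i libraries from −2.8 to 8.1. The third, with 9.60%, placed replicates 1 and 2 of PRMT5i at 21.6 and 14.1 and replicates 3 and 4 at −15.2 and −17.9. EZH2i replicate 2 stood at 27.0 on it and the other EZH2i libraries at −14.2 to −1.6. Among the DMSO libraries, replicate 1 stood apart, with 1.70% mitochondrial counts against 0.213% to 0.518% in the other DMSO libraries. CD33, an antigen of myeloid cells, was present in every library, at 71.4 to 87.9 CPM (counts scaled to library size) with EZH2i and 111 to 121 with PRMT5i, while 13 of 15 erythroid markers were under 1 CPM in all 8.

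Of 15741 genes tested, 6328 (40.2%) differed between the inhibitors at an adjusted p of at most 0.05, 2816 (17.9%) higher and 3512 (22.3%) lower with PRMT5i. A difference of at least 1 on the log2 scale was found for 1640 of them (10.4% of the genes tested), 674 higher and 966 lower. At 3 or more on that scale 47 genes were higher and 37 lower. The median over all genes tested was −0.01. Counts of list members below are to be read beside the shares over all genes tested, 17.9% higher and 22.3% lower. In 6239 genes (39.6%) the 4 libraries of one group lay entirely above those of the other, and 5631 of these genes also passed the test. Protein-coding genes passed in 5550 of 12553 cases (44.2%) and genes of other biotypes in 758 of 3083 (24.6%). Within replicates 1 and 2 alone 3516 genes passed, and within replicates 3 and 4 alone 3523. The plot of difference against level shows the whole comparison.

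**Figure D1:**
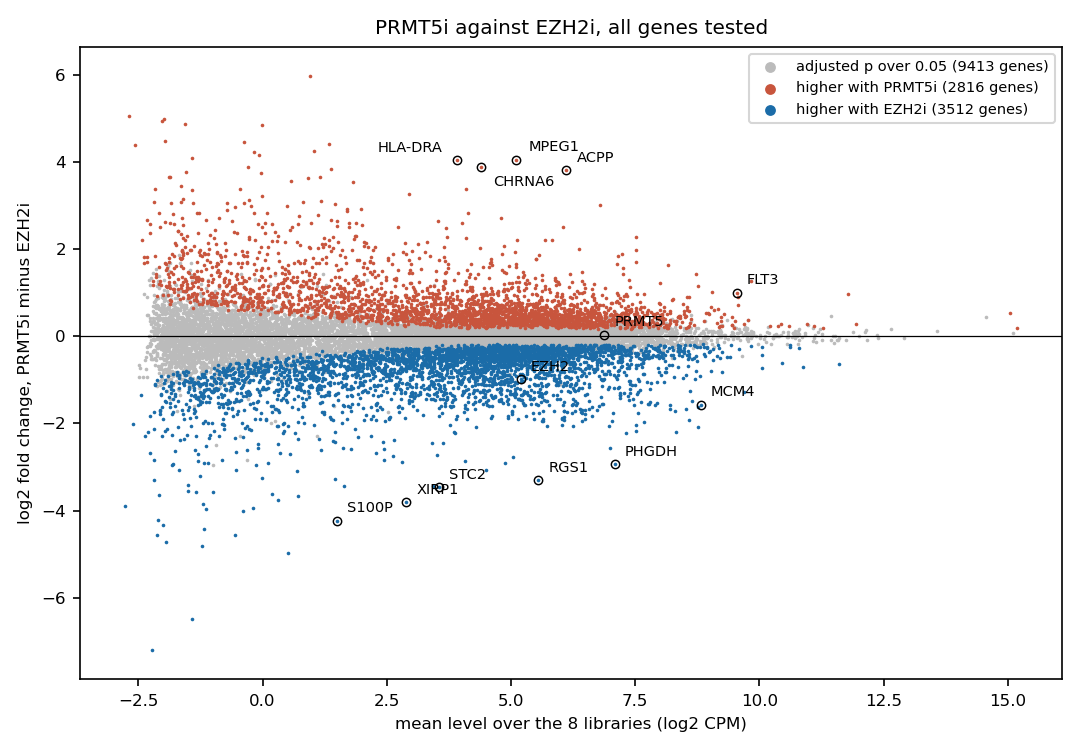
Each point is 1 of the 15741 genes tested, with its mean CPM over the 8 libraries on a log2 axis and its log2 fold change, PRMT5i minus EZH2i, on the vertical axis. Red points (2816 genes) passed the test and were higher with PRMT5i, blue points (3512 genes) passed and were higher with EZH2i, and grey points did not pass. The circled MPEG1 and HLA-DRA lie near 4 and the circled S100P near −4, while PRMT5 lies at 0.04.

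Of the 2 targets, EZH2 differed in mRNA and PRMT5 did not pass the test. EZH2 (chromosome 7, 148807383 to 148884321, GRCh38, GENCODE v29) had 47.6, 48.6, 48.6 and 48.3 CPM in EZH2i replicates 1 to 4 and 23.0, 25.4, 24.8 and 26.2 CPM in the PRMT5i replicates. Every EZH2i library thus lay above every PRMT5i library, and the log2 fold change was −0.98 (SE 0.07, adjusted p = 3.14e-06, edgeR quasi-likelihood test). With DMSO, EZH2 had 42.4 to 43.8 CPM in 3 libraries and 21.5 in replicate 1, the library that stood apart. PRMT5 (chromosome 14, 22920511 to 22929585) had 124, 106, 121 and 108 CPM with EZH2i and 120, 123, 119 and 115 CPM with PRMT5i. These ranges overlapped, and its difference of 0.04 (SE 0.07, adjusted p = 0.703) did not pass, although an antisense gene shares 27.1% of its exon bases and makes the level uncertain to that extent. Neither value measures enzyme activity.

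Other genes of the polycomb and arginine methylation machinery differed in both directions. Of 12 tested PRC2 genes 1 was higher and 5 lower with PRMT5i (median −0.23), and these lower genes were 8 after correction for GC content. JARID2, an accessory subunit that helps bring PRC2 to chromatin, was the higher one, with 126 to 140 CPM with EZH2i and 189 to 196 with PRMT5i (0.51, SE 0.06). Lower were EZH2, its paralogue EZH1 (25.7 to 17.8 CPM in the group means, −0.55), the histone-binding subunit gene RBBP7 (114 to 73.5 CPM, −0.66), and the accessory genes PHF19 (−0.75) and PHF1 (−0.33). SUZ12 and EED, the other core subunits, had −0.24 and −0.20 and did not pass. Of 19 PRC1 genes 2 (BMI1 and KDM2B) were higher and 5 lower, CBX2, PHC2, BCOR and RING1 among them, with a median of −0.08. Over all genes tested 17.9% were higher and 22.3% lower, so these counts do not set PRC1 apart. BMI1, a PRC1 subunit known for self-renewal, had means of 268 CPM with EZH2i and 606 with PRMT5i (1.15, SE 0.26), and CBX2, which encodes a reader of the H3K27 mark, had 11.6 and 4.51 CPM (−1.38). The list of methionine, methyl donor and polyamine metabolism had 0 of 16 higher and 7 lower (median −0.28). Only CBS in it, described below with the making of cysteine, was lower by at least 1 on the log2 scale (−2.91). In the PRMT family and its partners 2 of 12 (PRMT2 and PRMT7) were higher and 5 (CARM1, PRMT6, PRMT1, WDR77 and COPRS) lower, or 3 lower with all 16 libraries in the fit. CARM1, an asymmetric arginine methyltransferase, had 46.6 to 60.0 CPM with EZH2i and 36.9 to 43.1 with PRMT5i (−0.43, SE 0.09, adjusted p = 0.00410), but 19.9% of its exon bases lie in another gene, and the call was lost with all 16 libraries (adjusted p = 0.101). PRMT1, the main asymmetric arginine methyltransferase, had 316 and 252 CPM in the group means (−0.35), and its call was lost within either pair of replicates. The calls of CARM1, PRMT2, PRMT7 and KDM2B were lost within either pair as well. That of PRMT7 was also lost without PRMT5i replicate 1, 2 or 3 (adjusted p = 0.0748, 0.0640 and 0.0779).

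The 12 protein-coding genes with the largest positive difference, taken from genes whose higher group averaged 5 CPM or more and whose libraries did not overlap, were MPEG1, HLA-DRA, CHRNA6, ACPP, COL24A1, AMICA1, MS4A4A, MS4A6A, ITGA6, B3GNT7, CACNA2D3 and DTX4. MPEG1, which encodes the pore-forming protein perforin-2 of macrophages, had 2.52, 2.77, 4.82 and 5.37 CPM in EZH2i replicates 1 to 4 and 48.5, 50.9, 78.1 and 81.9 CPM in the PRMT5i replicates. Replicates 1 and 2 were lower than replicates 3 and 4 in both groups, and the groups were far from overlapping. Its log2 fold change was 4.05 (SE 0.28, adjusted p = 2.17e-06), and it was 4.23 within replicates 1 and 2 and 3.97 within replicates 3 and 4. DTX4, a deltex-type ubiquitin ligase gene, lies next to MPEG1 on chromosome 11 (DTX4 59171430 to 59208587, MPEG1 59208510 to 59212951). DTX4 had 2.6, 2.05, 5.95 and 6.75 CPM with EZH2i and 23.6, 23.5, 39.2 and 37.5 with PRMT5i (2.83, SE 0.35), and as in its neighbour replicates 1 and 2 were lower than replicates 3 and 4 in both groups.

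HLA-DRA, the alpha chain of the MHC class II molecule HLA-DR, had 1.89, 1.41, 1.47 and 2.10 CPM with EZH2i and 28.3, 24.4, 29.3 and 31.7 CPM with PRMT5i (4.04, SE 0.14, adjusted p = 9.83e-08). DMSO libraries, with 2.18 to 3.47 CPM, lay close to the EZH2i libraries. CHRNA6, a nicotinic acetylcholine receptor subunit gene, had 1.75 to 3.33 CPM with EZH2i and 35.8 to 44.1 CPM with PRMT5i (3.89, SE 0.16). ACPP, which encodes an acid phosphatase, had 8.57, 8.24, 9.62 and 9.96 CPM with EZH2i and 121, 116, 138 and 142 CPM with PRMT5i (3.81, SE 0.11, adjusted p = 3.82e-08). Libraries of ACPP varied by little within each group. AMICA1, an adhesion molecule gene of leukocytes, had 2.63 to 3.59 and 27.5 to 35.6 CPM (3.38, SE 0.13).

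MS4A4A and MS4A6A, membrane proteins of the MS4A family expressed in monocytes and macrophages, lie next to each other on chromosome 11 (60185702 to 60317944 and 60172014 to 60184666). MS4A6A had 18.6, 17.7, 29.6 and 30.7 CPM with EZH2i and 193, 185, 203 and 211 CPM with PRMT5i (3.01, SE 0.18), and MS4A4A had 0.931 to 1.99 and 11 to 17.1 CPM (3.26, SE 0.22). COL24A1, a collagen gene (3.53), ITGA6, a laminin-binding integrin subunit (2.92), B3GNT7, a glycosyltransferase (2.91), and CACNA2D3, a calcium channel subunit (2.87), all had under 1 CPM in the EZH2i mean and between 5.71 and 6.93 CPM in the PRMT5i mean.

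The 12 protein-coding genes with the largest negative difference by the same rule were S100P, XIRP1, STC2, CHAC1, VWF, RGS1, INHBE, C1orf186, PHGDH, CBS, TPSB2 and KDM7A. S100P, a calcium-binding protein of the S100 family, had 5.48, 4.24, 6.58 and 5.17 CPM with EZH2i and 0.300, 0.272, 0.327 and 0.249 CPM with PRMT5i (−4.23, SE 0.19, adjusted p = 2.10e-07). DMSO libraries had more S100P than either, 8.20 to 15.6 CPM. XIRP1, an actin-binding gene known from muscle, had 15.8, 15.7, 11.8 and 12 CPM with EZH2i and 1.18, 0.914, 1.12 and 0.771 CPM with PRMT5i (−3.81, SE 0.17, adjusted p = 2.10e-07). Here the DMSO libraries, with 2.98 to 6.02 CPM, lay between the groups, below every EZH2i library and above every PRMT5i library. RGS1, a regulator of G protein signalling in leukocytes, had 58.2, 70.1, 90.0 and 121 CPM with EZH2i, 10.7, 9.22, 6.91 and 7.76 CPM with PRMT5i (−3.31, SE 0.24) and 24.1 to 53.9 CPM with DMSO, again between the groups.

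VWF, the clotting factor of platelets and endothelium, had 7.58, 7.82, 4.24 and 3.16 CPM with EZH2i against 0.398 to 0.620 CPM with PRMT5i (−3.43, SE 0.32), and 1.38 to 3.02 CPM with DMSO. KDM7A, a histone demethylase gene, had 26.1 to 31.3 CPM with EZH2i and 3.36 to 4.79 CPM with PRMT5i (−2.87, SE 0.13). The mast cell tryptase gene TPSB2 had 19.7, 18.5, 5.61 and 5.54 CPM with EZH2i and 2.32, 2.59, 0.793 and 0.969 CPM with PRMT5i (−2.88, SE 0.52, adjusted p = 0.00128). In both groups replicates 1 and 2 were the higher ones, the difference was −2.95 within them and −2.67 within replicates 3 and 4, and the near-identical gene TPSAB1 (−2.57) makes the division of reads between the copies uncertain. C1orf186 had 25 to 50.6 and 2.75 to 6.36 CPM (−3.08, SE 0.30), but 19.3% of its exon bases lie in another gene. The DMSO means of C1orf186 (13.2 CPM) and TPSB2 (5.22 CPM) lay between those of the groups. KDM7A had 18.3 to 35.5 CPM with DMSO. The gene just outside these 12 was ORM1, at −2.83, against −2.87 for KDM7A just inside.

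**Figure D2:**
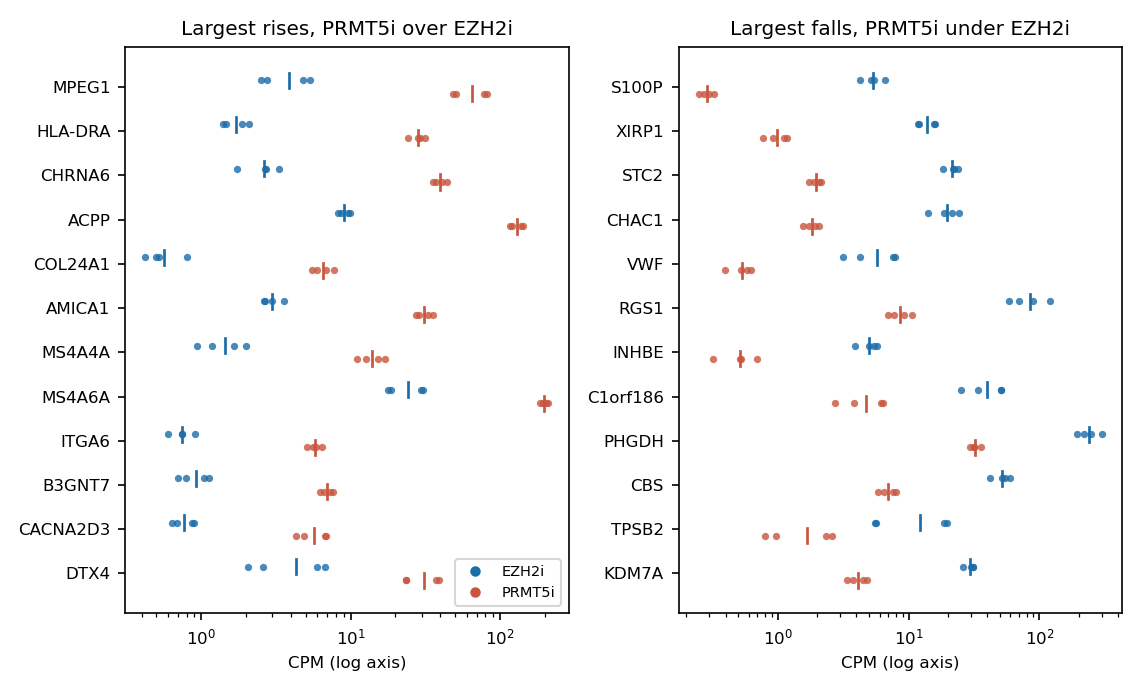
CPM on a log axis of the 12 genes with the largest positive difference (left) and the 12 with the largest negative difference (right), with 1 point per library, EZH2i in blue and PRMT5i in red, and a vertical bar at each mean. The libraries of the groups do not overlap in any of these 24 genes, which the rule required, and the PRMT5i libraries of S100P sit at 0.249 to 0.327 CPM against 4.24 to 6.58 with EZH2i.

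STC2, CHAC1, INHBE, PHGDH and CBS, among these 12, belong to the response to amino acid shortage and to the making of serine and cysteine. That response runs through the kinase GCN2 and other kinases that phosphorylate the initiation factor eIF2, which favours translation of the transcription factor ATF4, and ATF4 with C/EBP partners turns on genes for amino acid synthesis and import. Of 23 tested genes of the integrated stress response and serine synthesis, 0 were higher and 22 lower with PRMT5i (median −1.41), against 22.3% of all genes tested that were lower. The one that did not pass was CEBPB (−0.18). ATF4 had 659, 562, 609 and 518 CPM with EZH2i and 211, 209, 222 and 211 CPM with PRMT5i (−1.48, SE 0.08, adjusted p = 4.36e-07), and the DMSO libraries had 590 to 712. STC2, a secreted glycoprotein gene, had 18.2 to 23.9 CPM with EZH2i, 1.74 to 2.14 with PRMT5i (−3.47, SE 0.11) and 29.1 to 40.8 with DMSO. CHAC1, an enzyme that degrades glutathione, had 24.5, 21.5, 18.6 and 14 CPM with EZH2i and 1.94, 2.08, 1.75 and 1.57 CPM with PRMT5i (−3.43, SE 0.18). INHBE, a secreted inhibin subunit gene, had 3.88 to 5.72 and 0.323 to 0.700 CPM (−3.28, SE 0.22). In all 3 genes the EZH2i libraries lay above every PRMT5i library, which the rule for the 12 genes required.

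PHGDH, the enzyme of the first step from glycolysis into serine, had 300, 218, 250 and 193 CPM with EZH2i and 31.4, 35.7, 31.6 and 29.5 CPM with PRMT5i (−2.93, SE 0.13, adjusted p = 2.10e-07). PSAT1, the next enzyme, had 283 to 320 and 60.9 to 72.1 CPM (−2.18, SE 0.08). PSPH, the last enzyme of the path, had group means of 59.4 and 36.4 CPM (−0.73), the smallest difference of the 3. CBS, which starts the transfer of sulfur from homocysteine to cysteine, had 41.7 to 59.5 and 5.84 to 8.07 CPM (−2.91, SE 0.14). CTH, the enzyme after it, had means of 18.8 and 5.57 CPM (−1.77). ASNS, asparagine synthetase, had 221, 224, 222 and 206 CPM with EZH2i and 40.1, 39.7, 32.0 and 37.6 CPM with PRMT5i (−2.57, SE 0.09, adjusted p = 9.83e-08), but 44.6% of its exon bases lie in another annotated gene, so part of its reads is uncertain. The pseudokinase gene TRIB3, an ATF4 target, had means of 143 and 45.9 CPM (−1.66).

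Amino acid import showed the same direction. Of 11 amino acid transporters 1 was higher and 10 lower (median −1.18). SLC7A11, the cystine importer, had 41.1, 70.7, 50.5 and 66.7 CPM with EZH2i and 9.0, 9.57, 6.93 and 8.48 CPM with PRMT5i (−2.77, SE 0.19). SLC6A9, a glycine transporter, had 1.95 to 3.75 and 0.124 to 0.311 CPM (−3.66, SE 0.28). The leucine importer genes SLC7A5 (354 to 120 CPM, −1.58) and SLC3A2 (200 to 90.8 CPM, −1.16), which form 1 transporter, were both lower, and the lysosomal exporter gene SLC36A1 was the higher one (0.24). That call was lost with total counts (adjusted p = 0.0710), no filter, all 16 libraries or the replicate block, within either pair of replicates, and without any one of replicates 2, 3 and 4 of either group. Cytosolic aminoacyl-tRNA synthetases, which charge tRNAs with amino acids, had 1 of 20 higher and 12 lower (median −0.39). The higher one was RARS, for arginine (0.28). Its call was lost with all 16 libraries, within replicates 3 and 4, and without PRMT5i replicate 1, 2 or 4. The synthetases for methionine (MARS, −1.22), glycine (GARS, −1.20) and alanine (AARS, −1.06) were lower by most, and those for lysine (KARS, 0.02) and aspartate (DARS, 0.06) did not pass. Endoplasmic reticulum chaperones, the other arm of the protein stress response, went another way, with 7 of 19 higher and 0 lower (median 0.21), 11 higher in DESeq2, among them HSP90B1 (508 to 735 CPM, 0.51). HSPA5, the main chaperone of that compartment, had 0.33 and did not pass.

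To show the letters behind this group, promoters of ASNS and CHAC1 are printed from RefSeq (GRCh38.p14, 250 bases before the annotated start and 50 after it). ASNS is at chr7:97872359-97872658 on the minus strand and CHAC1 at chr15:40953221-40953520 on the plus strand, both written 5′ to 3′ along the gene. Capitals mark TGATGNAA, the composite ATF4-C/EBP element, on either strand.
ASNS: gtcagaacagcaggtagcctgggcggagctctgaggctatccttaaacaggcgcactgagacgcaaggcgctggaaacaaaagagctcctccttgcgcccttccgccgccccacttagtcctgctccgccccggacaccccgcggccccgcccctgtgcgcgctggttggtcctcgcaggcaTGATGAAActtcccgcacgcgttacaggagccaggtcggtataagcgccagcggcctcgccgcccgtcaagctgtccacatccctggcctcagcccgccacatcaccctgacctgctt
CHAC1: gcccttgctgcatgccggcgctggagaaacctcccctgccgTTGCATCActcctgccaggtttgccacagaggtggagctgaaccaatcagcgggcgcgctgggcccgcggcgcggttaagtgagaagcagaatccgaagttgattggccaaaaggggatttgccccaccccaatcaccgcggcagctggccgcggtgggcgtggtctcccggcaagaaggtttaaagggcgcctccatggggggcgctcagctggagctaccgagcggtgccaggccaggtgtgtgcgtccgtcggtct
The element begins 68 bases before the start in ASNS and 209 bases before it in CHAC1. It was found in 3 of 17 promoters of the stress response list (17.6%), in 5 of 12 of the tRNA synthetases (41.7%), in 3 of 10 of the transporters (30%) and in 3.67% of all 27305 promoters of the table. Among genes tested that had a promoter there, the share was 1.69%. The element is not particular to lists that were lower. Toll-like receptors and inflammasome sensors, more often higher with PRMT5i, had it in 3 of 13 (23.1%), and Fc receptors in 1 of 7 (14.3%). A match describes letters in this window and not a bound site.

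Genes of DNA replication and division were lower with PRMT5i in most lists. Before a cell copies its DNA, origins are licensed by loading the MCM helicase through ORC, CDC6 and CDT1, and E2F transcription factors drive these genes once RB proteins are released. Of 45 licensing and replisome genes 1 was higher and 39 lower (median −1.30). MCM4, a helicase subunit, had 671, 671, 680 and 665 CPM with EZH2i and 230, 244, 222 and 224 CPM with PRMT5i (−1.57, SE 0.06, adjusted p = 1.27e-07). DMSO libraries ranged from 413 to 652 CPM, all below the EZH2i libraries and above the PRMT5i libraries. ORC1, the regulated subunit of the origin recognition complex, had 64.9 to 73.0 CPM and 17.4 to 20.3 CPM (−1.91, SE 0.08). GINS4, a part of the active helicase, had 52.5 to 56.9 and 14 to 15.4 CPM (−1.91, SE 0.07), with 21.2% of its exon bases in another gene. CDT1 (−1.95), CDC6 (61.6 to 66.3 against 22.9 to 26.1 CPM, −1.41) and the primase polymerase gene POLA1 (84.1 to 95.3 against 24.9 to 29.2 CPM, −1.71) were lower as well. The other origin recognition subunits did not share this: ORC2 (0.02), ORC3 (−0.25) and ORC4 (0.03) did not pass, and ORC5 was the one higher gene (0.36, adjusted p = 0.0144), a call lost within either pair of replicates.

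Promoters of POLA1 (chrX:24693668-24693967, plus strand) and CDC6 (chr17:40287629-40287928, plus strand) are shown for this group, again picked for holding a motif. Capitals mark TTTCCCGC or TTTGGCGC, E2F motifs, on either strand.
POLA1: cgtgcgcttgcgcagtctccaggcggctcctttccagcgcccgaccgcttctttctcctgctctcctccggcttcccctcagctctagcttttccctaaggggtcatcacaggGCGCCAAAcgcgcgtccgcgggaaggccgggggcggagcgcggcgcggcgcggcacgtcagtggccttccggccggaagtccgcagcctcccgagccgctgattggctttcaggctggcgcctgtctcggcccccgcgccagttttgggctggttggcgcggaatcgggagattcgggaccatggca
CDC6: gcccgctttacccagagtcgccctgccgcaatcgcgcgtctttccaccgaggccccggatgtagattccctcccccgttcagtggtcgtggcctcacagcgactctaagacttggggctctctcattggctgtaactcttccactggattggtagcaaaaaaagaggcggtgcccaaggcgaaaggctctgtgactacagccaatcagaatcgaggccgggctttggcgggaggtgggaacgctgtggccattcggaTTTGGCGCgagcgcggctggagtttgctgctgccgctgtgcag
An E2F motif was found in 16 of the 39 licensing and replisome genes with a promoter in the table (41%), in 3.7% of the genes tested with a promoter and in 2.31% of all promoters. In POLA1 the motif begins 137 bases before the start and in CDC6 at base 7 after it.

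The supply of nucleotides and the E2F network were lower too. Of 20 nucleotide synthesis genes 0 were higher and 13 lower (median −0.61), led by the ribonucleotide reductase subunit RRM2 (203 to 49.7 CPM, −2.05), thymidine kinase TK1 (−1.55) and thymidylate synthase TYMS (−1.35). In RRM2, 20.2% of the exon bases lie in another gene. Among 19 E2F and RB family genes 0 were higher and 10 lower (median −0.39). The activator E2F1 had 18.9 to 23.1 CPM with EZH2i and 6.11 to 7.49 with PRMT5i (−1.60, SE 0.10), while the repressors E2F4 (0.03) and E2F6 (−0.16) did not pass. MYBL2, which with the MuvB core activates mitotic genes, had 76.9 to 97.4 and 29.9 to 36.7 CPM (−1.43, SE 0.10). Of 15 cyclins and interphase CDKs 11 were lower and 0 higher, such as CCNE2 (−1.33) and CDK2 (−1.14), and CDK6, a kinase prominent in MLL leukaemia, had 0.37 and did not pass. Replication-dependent histone genes, which are transcribed in S phase, were lower in 52 of 52 tested (median −1.57), from −2.58 to −0.35. Many of these are near-identical copies, so single members are uncertain while the sum over copies is less so.

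Mitosis and repair followed. Of 48 mitosis genes 0 were higher and 45 lower (median −1.12). The kinase gene AURKB had 33.9, 31.0, 34.3 and 28.2 CPM with EZH2i and 8.82, 8.35, 7.16 and 5.97 CPM with PRMT5i (−2.09, SE 0.12, adjusted p = 1.05e-06). Its relative AURKA, the centrosome kinase, differed by less (51.1 to 37.0 CPM, −0.49). TOP2A, the topoisomerase of dividing cells, had 431 to 525 and 133 to 162 CPM (−1.72, SE 0.11), and MKI67, the proliferation antigen, had means of 163 and 54.7 CPM (−1.60). CKAP2, BUB3 and SMC4 were the 3 members that did not pass. Of 27 homologous recombination and Fanconi genes 25 were lower and 0 higher (median −1.11). RAD54L (−1.81) and FANCD2 (−1.76) were lower by most, and BRCA1 had 74.7 to 87.9 and 30.2 to 36.1 CPM (−1.36, SE 0.09). The hexamer TTTGAA, the CHR element of mitotic genes, was found in 30 of 42 mitosis promoters (71.4%) and in 15.4% of all promoters, and CCAAT in 36 of 43 histone promoters (83.7%) and 35.7% of all, counting both strands. Among genes tested with a promoter the shares were 10.1% for TTTGAA and 37% for CCAAT.

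CDK inhibitors and p53 targets did not move as a block. Of 6 tested CDK inhibitors 1 was higher and 3 lower. CDKN1C, an imprinted inhibitor and known polycomb target, had 1.44 to 2.29 CPM with EZH2i and 0.472 to 0.900 with PRMT5i (−1.43, SE 0.25), CDKN1A, the p53-driven inhibitor, had means of 239 and 172 CPM (−0.49), and CDKN2C had 113 and 150 CPM (0.39). Of 29 p53 targets 8 were higher and 8 lower (median −0.02). BTG2, a growth arrest gene, had 20.7 to 22.5 and 46.7 to 49.8 CPM (1.14, SE 0.07), and BBC3, a pro-apoptotic BCL2 family gene, had 24.8 to 27.9 and 12.2 to 14.4 CPM (−1.0, SE 0.08). In the BCL2 family 5 of 14 were higher and 2 lower, BBC3 and the survival gene BCL2, which had 273 to 343 CPM with EZH2i and 172 to 205 with PRMT5i (−0.72, SE 0.10). MCL1, another survival gene, had means of 238 and 349 CPM (0.53).

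Lipid and glucose genes were lower in part. Of 10 fatty acid synthesis genes 1 was higher and 7 lower (median −0.81). The desaturase gene FADS1 had 109, 109, 94.5 and 108 CPM with EZH2i and 33.7, 30.6, 26.9 and 26.9 with PRMT5i (−1.85, SE 0.10). SCD, the stearoyl desaturase, had 1117 to 1220 CPM with EZH2i, 476 to 499 with PRMT5i (−1.29, SE 0.06) and 805 to 925 with DMSO, so that DMSO lay between the groups. Of 23 sterol synthesis genes 0 were higher and 15 lower (median −0.48), such as the mevalonate pathway gene MVD (41.3 to 49.1 against 15 to 20.5 CPM, −1.32). Glycolysis genes had 2 of 24 higher and 12 lower (median −0.21). GAPDH had means of 3784 and 2475 CPM (−0.63), the glucose transporter gene SLC2A3 247 and 116 (−1.11), and PKM, pyruvate kinase, did not pass (0.04).

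MHC class II genes had the highest median of the lists in the plot of gene groups. MHC class II molecules present peptides on monocytes, dendritic cells and B cells, and their transcription depends on the coactivator CIITA, which docks on RFX and NF-Y at the promoters. Among the 14 class II genes tested, 10 had higher and 2 had lower levels (median 1.59), against 17.9% of all genes tested that were higher, and 6 were higher among genes with at least 5 CPM in either group. CIITA had 1.40, 0.904, 0.969 and 0.861 CPM with EZH2i and 5.24, 6.23, 7.26 and 6.51 CPM with PRMT5i (2.59, SE 0.17, adjusted p = 1.63e-06), with 11.6% of its exon bases in another gene. HLA-DRB1, a beta chain, had 0.230 to 0.442 and 4.61 to 5.06 CPM (3.85, SE 0.20). HLA-DMB, a chain of the peptide-loading factor HLA-DM, had 0.172 to 0.314 and 2.98 to 4.08 CPM (3.64, SE 0.21). CD74, the invariant chain, was well expressed in both groups, with 78.7 to 111 and 190 to 286 CPM (1.28, SE 0.15). The lower ones were RFXAP, a subunit of RFX (5.04 to 9.27 against 3.24 to 4.70 CPM, −0.87), and HLA-DOB (−0.56, adjusted p = 0.0229), of which 29.7% of the exon bases lie in another gene and whose call was lost without EZH2i replicate 3 or without any of PRMT5i replicates 1, 2 and 3. RFX5 (0.16) and RFXANK (−0.05) did not pass.

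Class II promoters are printed for HLA-DRB1 (chr6:32589799-32590098, minus strand) and HLA-DMB (chr6:32940979-32941278, minus strand), and capitals mark CCAAT on either strand, the core letters that NF-Y reads.
HLA-DRB1: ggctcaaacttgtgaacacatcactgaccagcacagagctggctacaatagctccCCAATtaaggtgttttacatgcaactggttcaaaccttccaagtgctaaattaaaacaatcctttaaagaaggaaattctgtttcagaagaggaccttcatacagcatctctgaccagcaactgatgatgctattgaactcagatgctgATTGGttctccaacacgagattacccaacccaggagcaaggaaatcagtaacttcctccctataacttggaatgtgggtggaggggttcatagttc
HLA-DMB: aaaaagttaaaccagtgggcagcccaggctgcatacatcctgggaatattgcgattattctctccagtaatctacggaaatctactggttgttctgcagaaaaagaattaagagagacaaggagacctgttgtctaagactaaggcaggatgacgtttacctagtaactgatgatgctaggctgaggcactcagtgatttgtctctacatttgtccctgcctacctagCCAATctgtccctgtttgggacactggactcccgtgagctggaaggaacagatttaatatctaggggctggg
CCAAT was found in 8 of 11 class II promoters (72.7%), against 35.7% of all promoters and 37% of those of genes tested. It does not set class II apart. Shares were higher in sterol synthesis (83.3%) and mitosis (73.8%), both mostly lower with PRMT5i, and in endoplasmic reticulum chaperones (94.4%). The matches begin 195 and 46 bases before the start in HLA-DRB1 and 22 bases before it in HLA-DMB. MHC class I genes, which nearly all cells express, showed no such block, with 5 of 17 higher and 4 lower (median −0.06). The peptide pump gene TAP1 was higher (46.7 to 77.5 CPM, 0.71), and its partner TAP2 lower (31.4 to 16.5 CPM, −0.95).

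Interferon-stimulated genes were higher with PRMT5i in 30 of 45 cases and lower in 1 (median 0.67). These genes are switched on by type I interferon through the factor ISGF3, which reads the interferon-stimulated response element (ISRE). IFITM1, which restricts virus entry, had 4.49, 3.13, 4.06 and 3.79 CPM with EZH2i and 23.1, 22.5, 21.5 and 20.1 CPM with PRMT5i (2.48, SE 0.11, adjusted p = 2.10e-07), though IFITM2 shares 32.5% of its exon bases. MX1, an antiviral GTPase, had 22.9, 18.4, 22.6 and 17.6 CPM with EZH2i and 83.9, 83.6, 59.9 and 53.1 CPM with PRMT5i (1.77, SE 0.16). In PRMT5i the first 2 replicates of MX1 were higher than the others, and the log2 fold change was 2.02 within replicates 1 and 2 and 1.48 within replicates 3 and 4. IFI27 had 4.30 to 5.54 and 16.9 to 22.7 CPM (2.04, SE 0.12) and MX2 13.4 to 17.1 and 39.6 to 46.0 CPM (1.47, SE 0.10). The chemokine gene CXCL10 had 0.838 to 0.931 CPM with EZH2i and 3.55 to 5.2 with PRMT5i (2.20, SE 0.17), but the DMSO libraries had 3.52 to 10.9 CPM, so EZH2i stood below the other groups. GBP5, a guanylate-binding protein, was the lower one (−0.72, adjusted p = 0.0290), a call lost without EZH2i replicate 1 or 2 or PRMT5i replicate 3 or 4, and IFIT2 (−0.03), RSAD2 (−0.09) and IRF7 (−0.21) did not pass.

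Promoters of IFITM1 (chr11:313790-314089, plus strand) and IFI27 (chr14:94110486-94110785, plus strand) are printed as examples that hold the element. Capitals mark the ISRE core (GAAA, any 2 bases, GAAA) on either strand.
IFITM1: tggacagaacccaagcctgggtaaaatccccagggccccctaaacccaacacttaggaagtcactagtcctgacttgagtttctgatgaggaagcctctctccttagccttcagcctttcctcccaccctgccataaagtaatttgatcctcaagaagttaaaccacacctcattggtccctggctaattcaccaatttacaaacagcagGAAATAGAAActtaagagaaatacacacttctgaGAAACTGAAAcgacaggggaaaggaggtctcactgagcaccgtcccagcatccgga
IFI27: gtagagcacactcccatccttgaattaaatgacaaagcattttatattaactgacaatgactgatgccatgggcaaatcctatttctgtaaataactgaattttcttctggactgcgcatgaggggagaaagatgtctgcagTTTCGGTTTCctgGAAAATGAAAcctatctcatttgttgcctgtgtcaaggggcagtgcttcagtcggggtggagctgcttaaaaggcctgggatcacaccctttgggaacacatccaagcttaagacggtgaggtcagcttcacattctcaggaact
The element was found in 22 of 35 interferon-stimulated promoters (62.9%), in 3.65% of all promoters and in 3.04% of those of genes tested. In IFITM1 it begins 40 and 6 bases before the start, and in IFI27 108 and 95 bases before it. The plot of gene groups sets all of these lists side by side.

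**Figure D3:**
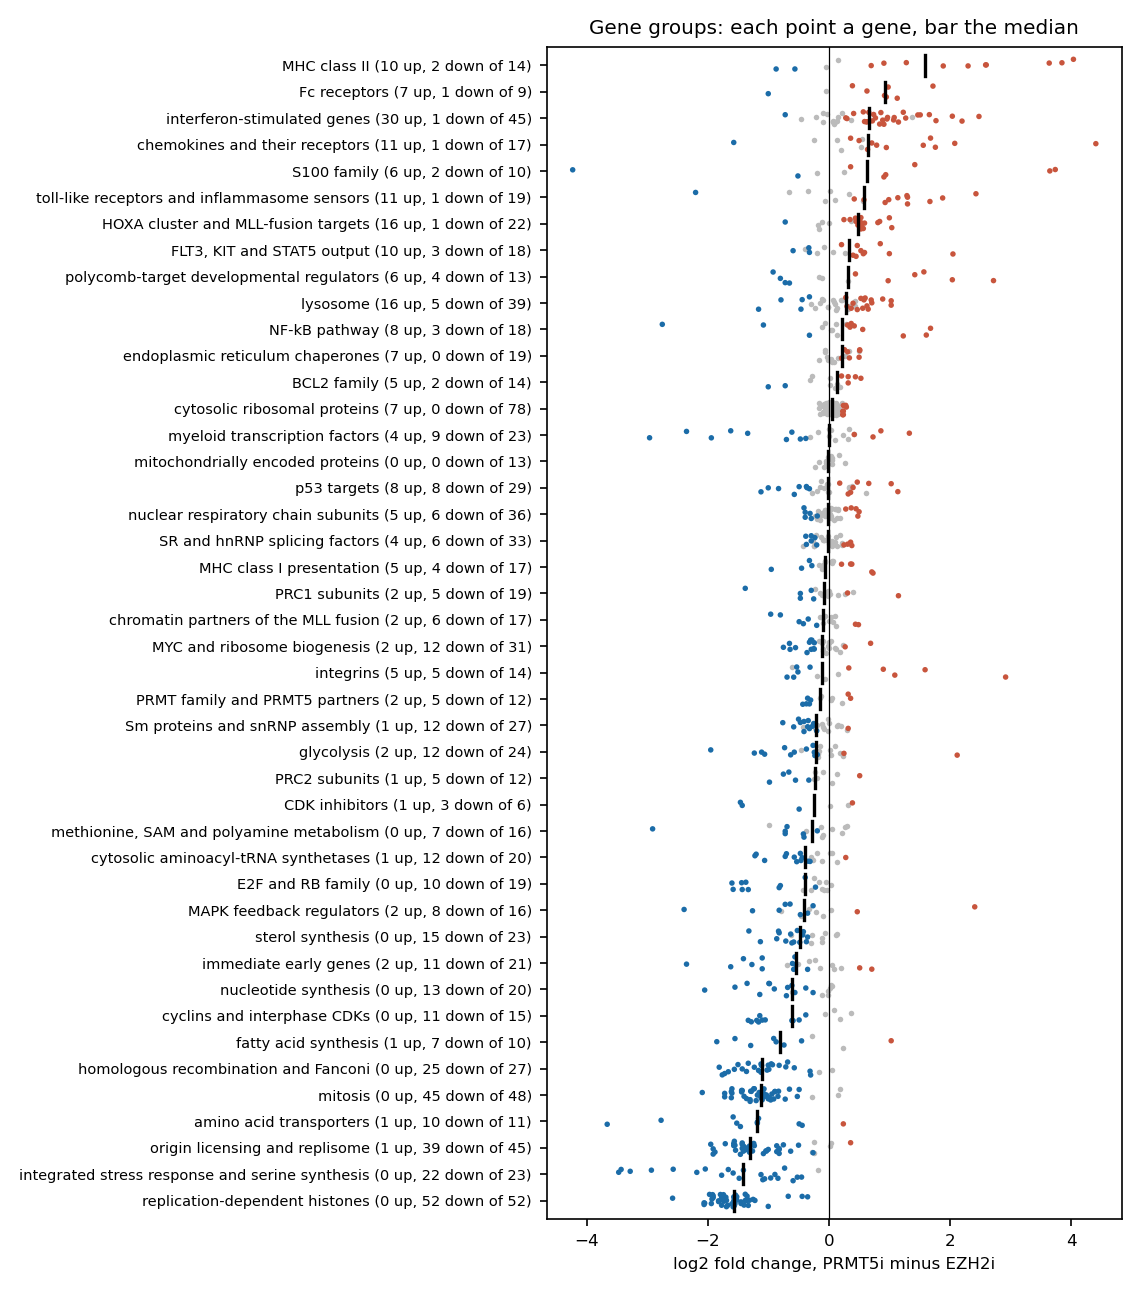
Each point is 1 tested gene of a list, at its log2 fold change, PRMT5i minus EZH2i, red if higher and blue if lower past the threshold and grey if not past it, and the black bar is the list's median. MHC class II has the highest median (1.59) and the replication-dependent histones the lowest (−1.57), while the cytosolic ribosomal proteins gather at 0.05.

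Receptors and effectors of innate immunity were higher more often than lower. Chemokines and their receptors had 11 of 17 higher and 1 lower (median 0.64). CCL2, which draws monocytes, had 0.274, 0.121, 0.288 and 0.230 CPM with EZH2i and 5.48, 4.42, 4.85 and 4.67 CPM with PRMT5i (4.41, SE 0.22, adjusted p = 3.99e-07), and DMSO libraries had 0.693 to 1.42. CXCR2, a receptor of neutrophil chemokines, had 5.94 to 7.23 and 18.9 to 21.2 CPM (1.56, SE 0.09). The exception was CCL5, a chemokine for T cells and monocytes, with 347, 246, 269 and 201 CPM with EZH2i and 91.1, 89.0, 91.8 and 91.1 CPM with PRMT5i (−1.57, SE 0.13). Among 19 toll-like receptors and inflammasome sensors 11 were higher and 1 lower (median 0.58), 6 of the higher ones among genes with at least 5 CPM in either group. TLR2, a receptor for bacterial lipoproteins, had 23.3 to 33.3 and 67.3 to 78.2 CPM (1.29, SE 0.12), and NAIP, a sensor of flagellin, had 9.67 to 14.8 and 33.9 to 53.7 CPM (1.88, SE 0.18). NLRP12, a dampening NOD-like receptor gene, was lower (3.47 to 5.50 against 0.837 to 1.09 CPM, −2.20, SE 0.18). Of 9 Fc receptor genes 7 were higher and 1 lower (median 0.92). FCGR2A, an activating IgG receptor gene, had 43.3 to 49.4 and 81.0 to 92.3 CPM (0.92, SE 0.08), and FCGR1A and FCGR1B, near-identical copies, had −0.04, which did not pass, and −1.0.

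In the S100 family 6 of 10 were higher and 2 lower, namely S100P and S100A11 (−0.51). S100A8 and S100A9, the calprotectin pair of monocytes and neutrophils, were low throughout, with 0.0861 to 0.192 CPM against 1.28 to 2.36 CPM for S100A8 (3.74, SE 0.30) and 0.219 to 0.445 against 2.84 to 5.62 CPM for S100A9 (3.65, SE 0.30). S100A4, linked to cell motility, had means of 97.0 and 189 CPM (0.94), and S100P, described above, had the lowest value of the family. Integrins had 5 of 14 higher and 5 lower, the lower count being 3 without PRMT5i replicate 1 or 2 or EZH2i replicate 1 or 3. ITGAM, the CD11b chain of myeloid cells, had 30.1 to 36.0 and 63.5 to 80 CPM (1.09, SE 0.10). ITGAL, the CD11a chain, had means of 526 and 993 CPM (0.90), ITGAX, the CD11c chain, 35.0 and 25 (−0.51, a call lost without those libraries), and their shared partner ITGB2 did not pass (−0.06). Lysosomal genes had 16 of 39 higher and 5 lower (median 0.28). In the NF-kB pathway 8 of 18 were higher and 3 lower, with TNF at means of 15.2 and 46.8 CPM (1.61) and the adaptor gene TRAF1 at 10.8 and 1.62 CPM (−2.75). DMSO libraries had 17.5 to 42.4 CPM of TNF, above every EZH2i library. Their TRAF1 levels, 4.41 to 6.86 CPM, lay between the groups.

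Target genes of the MLL fusion were mostly higher with PRMT5i. Of 22 genes of the HOXA cluster and other MLL-fusion targets 16 were higher and 1 lower (median 0.49). HOXA9, the central transcription factor of this programme, had 47.6 to 53.8 CPM with EZH2i and 70.7 to 75.7 with PRMT5i (0.52, SE 0.08), and HOXA5 had 2.80 to 3.36 and 6.15 to 7.14 CPM (1.04, SE 0.11). MEIS1, the cofactor of HOXA9, had means of 58.3 and 70.3 CPM (0.25), MYB did not pass (−0.18), and the lower one was BCL2. FLT3, a receptor kinase that carries an internal duplication in this line, had 430, 442, 528 and 564 CPM with EZH2i and 1037, 985, 959 and 1017 CPM with PRMT5i (1.00, SE 0.10, adjusted p = 1.64e-05). DMSO libraries, at 579 to 810 CPM, lay between. Among genes of FLT3, KIT and STAT5 output 10 of 18 were higher and 3 lower (STAT5B, CSF3R and IL3RA), the lower count being 1 without PRMT5i replicate 3 or 4 or EZH2i replicate 1, 2 or 3. Chromatin partners of the MLL fusion had 2 of 17 higher (AFF1 and CDK9) and 6 lower, with DOT1L, the H3K79 methyltransferase, at means of 109 and 63.6 CPM (−0.80). MYC had 533 to 704 and 415 to 453 CPM (−0.55, SE 0.08), and MYC with ribosome biogenesis genes had 2 of 31 higher and 12 lower (median −0.11).

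Signal-induced genes were more often lower with PRMT5i, and transcription factors of the myeloid lineage differed in both directions. Of 23 myeloid factors 4 (IRF8, ID2, IKZF1 and TFEC) were higher and 9 lower (median 0.00), or 7 higher after GC correction and 4 lower among genes with at least 5 CPM. Of all genes tested 17.9% were higher and 22.3% lower, so the direction of this list depends on the setting. IRF8, a driver of monocyte fate, had 209, 199, 234 and 219 CPM with EZH2i and 406, 392, 393 and 389 with PRMT5i (0.86, SE 0.07), with 288 to 330 CPM in DMSO, between the groups. GATA2, a factor of stem cells, mast cells and basophils, had 106, 100, 55.5 and 56.9 CPM with EZH2i and 25.4, 26.9, 16.5 and 15.2 CPM with PRMT5i (−1.94, SE 0.27), higher in replicates 1 and 2 of both groups. DMSO libraries had 17.8 to 51.5 CPM of GATA2, below every EZH2i library. SPI1, the PU.1 factor, did not pass (0.32). Immediate early genes, which answer growth signals within minutes, had 2 of 21 higher and 11 lower (median −0.55). EGR1 had 6.57 to 10.3 and 2.26 to 2.68 CPM (−1.62, SE 0.16), EGR2 3.48 to 3.99 and 0.398 to 0.992 CPM (−2.35, SE 0.25), and FOS (0.71) and ZFP36 (0.51) were the higher ones. The list of MAPK feedback regulators, which also took in the receptor gene IL1RAP, had 2 of 16 higher (DUSP4 and IL1RAP) and 8 lower (median −0.41). DUSP4 was near the floor, with 0.0287 to 0.137 CPM with EZH2i and 0.373 to 0.677 with PRMT5i. SPRY1, a brake on receptor kinase signalling, had 9.25 to 11.4 CPM with EZH2i, 1.52 to 2.63 with PRMT5i (−2.39, SE 0.17) and 5.39 to 7.95 with DMSO.

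Developmental regulators that polycomb classically silences were mostly too low to test, with 13 of 70 tested, 6 higher and 4 lower (median 0.31). PAX6 had 1.18, 3.01, 1.44 and 2.79 CPM with EZH2i and 5.94 to 6.89 CPM with PRMT5i (1.57, SE 0.26), with 25.2% of its exon bases in another gene. DLX2 had 0.563 to 0.943 and 2.42 to 3.78 CPM (2.04, SE 0.23), and FOXA1 had 2.72 to 4.04 and 1.56 to 2.22 CPM (−0.80, SE 0.18, adjusted p = 0.00447). Splicing and translation genes differed little in size. Sm proteins and snRNP assembly factors, among them known PRMT5 substrates, had 1 of 27 higher and 12 lower (median −0.21), from −0.76 to 0.32. The higher one was SMN1, a call lost without PRMT5i replicate 4 (adjusted p = 0.0552) and within either pair of replicates. SR and hnRNP factors had 4 of 33 higher and 6 lower, the lower count being 3 without PRMT5i replicate 3 and 2 without EZH2i replicate 3. Cytosolic ribosomal proteins had 7 of 78 higher and 0 lower (median 0.05), 16 higher after GC correction and 4 without PRMT5i replicate 3 or 4. Nuclear genes of the respiratory chain had 5 of 36 higher and 6 lower, or 8 higher without EZH2i replicate 4 and 3 lower without EZH2i replicate 3. Shares over all genes tested were 17.9% higher and 22.3% lower. With all 8 libraries, the ribosomal protein, respiratory chain, and SR and hnRNP lists did not exceed them. Proteins encoded in mitochondrial DNA had 0 of 13 past the threshold in edgeR and in DESeq2, and 0 at an unadjusted p of 0.05 (median −0.01).

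Markers of single cell types, listed to see which other cells the libraries resemble, differed in both directions. Of 15 tested monocyte and macrophage markers 10 were higher and 2 lower, with a summed level of 792 to 982 CPM with EZH2i and 1278 to 1649 with PRMT5i. The scavenger receptor gene CD36 had 3.72, 6.45, 6.08 and 6.89 CPM with EZH2i and 21.4, 20.3, 34 and 37.7 CPM with PRMT5i (2.26, SE 0.24). LYZ, lysozyme, had means of 572 and 953 CPM (0.71). Granulocyte markers had 1 of 10 higher and 5 lower, the lower count being 3 without EZH2i replicate 2, and their summed levels overlapped (2573 to 4068 and 2799 to 3343 CPM). AZU1, a protein of primary granules, had 819, 693, 604 and 505 CPM with EZH2i and 188, 221, 249 and 203 with PRMT5i (−1.63, SE 0.14), and MPO, myeloperoxidase, had 24.9 to 33.4 and 13.2 to 17.1 CPM (−0.97, SE 0.11).

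Eosinophil, basophil and mast cell markers had 4 of 10 higher and 5 lower, and several of the lower ones differed between replicates 1 and 2 and replicates 3 and 4. EPX, eosinophil peroxidase, had 28.8, 34, 5.03 and 4.59 CPM with EZH2i and 5.16, 6.30, 0.886 and 0.771 CPM with PRMT5i (−2.46, SE 0.79, adjusted p = 0.0293). The groups overlapped, with replicates 1 and 2 of PRMT5i above replicates 3 and 4 of EZH2i. The difference was −2.45 and −2.54 within the pairs, and the call was lost without EZH2i replicate 1 or 2 or PRMT5i replicate 3 or 4. PRG2, the eosinophil major basic protein, had 792, 826, 289 and 313 CPM and 251, 239, 105 and 113 CPM (−1.66, SE 0.41), with 43.0% of its exon bases in another gene. The summed level of these markers was 597 to 1263 CPM with EZH2i and 358 to 526 with PRMT5i. Of the erythroid list 2 of 15 genes could be tested and both were lower, TFRC and EPOR (−0.48 and −1.0), and of 4 megakaryocyte genes VWF alone passed. T and NK cell markers had 1 of 7 higher and 3 lower (CD3D, TRAC and NCAM1). The higher one was GNLY (0.86), a call lost with DESeq2 (adjusted p = 0.0529), total counts or no filter, within either pair of replicates, and without any single library except EZH2i replicate 2. B cell markers had 3 of 7 higher and 0 lower, with a summed level of 9.45 to 14.5 CPM with EZH2i and 14.6 to 17.2 with PRMT5i. Markers of epithelial cells and fibroblasts had 2 of 7 higher and 2 lower. Blast markers had 7 of 12 higher and 2 lower, several of them counted above (FLT3, HLA-DRA and KIT). In bulk RNA a change in the share of cells of a type and a change in RNA per cell cannot be told apart, and the part that any other cell type has in these results was not tested.

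Outside protein-coding genes, the 3 largest positive differences by the same rule were RP11-568N6.1, IGKC and RP11-517H2.6. The immunoglobulin constant gene IGKC had 0.924 to 1.39 CPM with EZH2i and 4.92 to 8.0 with PRMT5i (2.24, SE 0.20), and RP11-568N6.1 had 0.520 to 1.21 and 5.21 to 6.86 CPM (2.59, SE 0.22). RP11-517H2.6 (2.15) shares 56.6% of its exon bases with CCR6 and is uncertain. The 3 largest negative differences were TRDC, OLMALINC and AE000661.37. TRDC, the constant gene of the T cell receptor delta chain, had 24.4, 22.9, 15 and 17.3 CPM with EZH2i and 3.90, 3.70, 1.89 and 2.54 CPM with PRMT5i (−2.73, SE 0.24), with 38.8% of its exon bases in another gene. AE000661.37 (−2.03), annotated across the same stretch of chromosome 14 (22380680 to 22482959, TRDC 22462932 to 22465787), had 15.6 to 28.5 and 2.71 to 8.20 CPM. OLMALINC, a long noncoding RNA gene, had 7.03 to 7.92 and 1.24 to 1.94 CPM (−2.29, SE 0.14). In these 3 genes the DMSO means lay between those of the groups, at 9.60 (TRDC), 9.16 (AE000661.37) and 5.05 CPM (OLMALINC).

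Where DMSO and the combination lie was read on a scale that runs from 0 at the EZH2i mean to 1 at the PRMT5i mean of log2 CPM. Of the 1640 genes that passed with a difference of at least 1, DMSO lay nearer to EZH2i in 1347 (82.1%) and the combination nearer to PRMT5i in 1364 (83.2%), with median positions of 0.17 and 0.72. Both held in 1188 genes (72.4%). DMSO and the combination were both nearer to PRMT5i in 176 genes (10.7%), and both nearer to EZH2i in 159 (9.70%). In 117 genes (7.13%) DMSO lay nearer to PRMT5i and the combination nearer to EZH2i. Over all 6328 genes the shares were 73.6% for DMSO, or 80.2% without DMSO replicate 1 and 67.1% without DMSO replicate 2, and 81.4% for the combination.

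Gene groups differed in these positions, counted over their members past the threshold. All 22 stress response genes had DMSO nearer to EZH2i and the combination nearer to PRMT5i, with median positions of −0.19 and 0.84. ASNS, for instance, had 245 to 269 CPM with DMSO and 36.7 to 84.4 in the combination, where replicates 3 and 4 (74.1 and 84.4 CPM) were higher than replicates 1 and 2. In mitosis the median position of the combination was 0.50, with 23 of 45 genes nearer to PRMT5i, and AURKB had 11.9 to 13.4 CPM in the combination against 5.97 to 8.82 with PRMT5i. Interferon-stimulated genes had DMSO at 0.61 and the combination at 1.59, beyond PRMT5i, with 8 of 31 genes nearer to EZH2i in DMSO and 30 nearer to PRMT5i in the combination. MX1 had 35.2 to 45.9 CPM with DMSO and 93.1 to 133 in the combination, above every PRMT5i library. The 7 of 78 ribosomal protein genes that passed had median positions of 0.88 for DMSO and 0.09 for the combination. These positions rest on small differences, at most 0.29 in the list. In RPS18, for instance, DMSO libraries ran from 3190 to 5217 CPM. That range spans EZH2i (3169 to 3827 CPM) and PRMT5i (4038 to 4559 CPM) almost fully, so its DMSO position is uncertain.

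**Figure D4:**
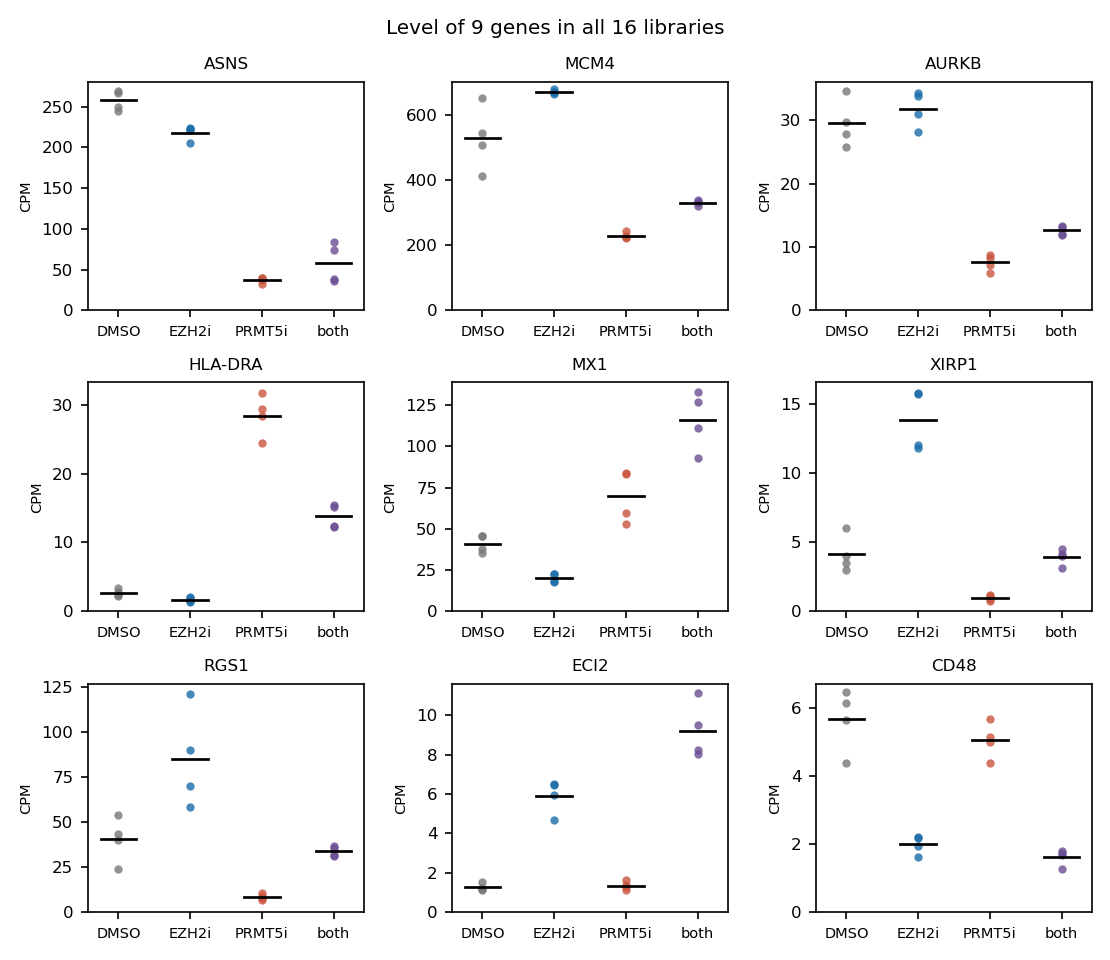
CPM of 9 genes in all 16 libraries, with 1 point per library and a bar at each mean, for DMSO, EZH2i, PRMT5i and both inhibitors, each panel from 0 on its own linear axis. ASNS, MCM4, AURKB and HLA-DRA show DMSO near EZH2i, XIRP1 and RGS1 show DMSO and the combination between the single inhibitors, and ECI2 and CD48 show DMSO beside PRMT5i.

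The difference between the combination and DMSO comes from libraries that did not enter the test of PRMT5i against EZH2i. In the combination against DMSO 4737 of 15732 genes passed (30.1%), with 14.3% higher in the combination and 15.9% lower. At least 1 on the log2 scale separated 1262 of these (8.02%). Within replicates 1 and 2 edgeR called 0 genes there, with 2619 at an unadjusted p of at most 0.05, and within replicates 3 and 4 it called 7360. Of the 6233 genes that passed for PRMT5i against EZH2i and could be tested there, 5047 (81.0%) had the same sign, against 57.4% of the genes that had not passed. Leaving out DMSO replicate 2 gave a share of 75.7%, and leaving out DMSO replicate 1 gave 84.5%. Among the 2889 genes past the threshold in both, 2719 had the same sign. CHRNA6 had 3.89 in the first comparison and 3.85 in the second, ACPP 3.81 and 3.37, S100P −4.23 and −5.01, and STC2 −3.47 and −3.46. XIRP1 (−3.81 and −0.06), RGS1 (−3.31 and −0.26) and ITGA6 (2.92 and 0.51) had large values only in the first, and in the second these 3 did not pass.

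Opposite signs past both thresholds were rare, with 51 of 2769 genes higher with PRMT5i (1.84%) and 119 of 3464 lower (3.44%). The 5 protein-coding genes with the largest opposite values were ECI2, CD48, ARID5B, AIG1 and VCAN. ECI2, an enzyme of fatty acid oxidation, had 6.49, 6.43, 4.69 and 5.97 CPM with EZH2i, 1.40, 1.15, 1.28 and 1.62 with PRMT5i, 1.16 to 1.52 with DMSO and 8.03 to 11.1 in the combination. Both groups with EZH2i were thus high and both groups without it low, but 27.1% of its exon bases lie in another gene. ARID5B, a chromatin regulator gene, had 6.92 to 9.99 CPM with EZH2i and 6.72 to 8.07 in the combination against 3.11 to 3.69 with PRMT5i and 2.5 to 3.30 with DMSO (−1.27 and 1.38). AIG1, a membrane hydrolase gene, had the same order (−1.22 and 1.39). CD48, a surface protein of leukocytes, and VCAN, a proteoglycan of monocytes, went the other way. CD48 had 1.64 to 2.22 CPM with EZH2i and 1.27 to 1.79 in the combination against 4.40 to 5.69 with PRMT5i and 4.40 to 6.46 with DMSO (1.32 and −1.81), with 29.8% of its exon bases in another gene. VCAN had 2.21 to 3.93 and 2.59 to 3.32 CPM against 4.92 to 8.90 and 4.82 to 10.2 (1.11 and −1.45). In each of these 5 genes the 2 groups that received EZH2i lay together, apart from the 2 that did not. The choice of genes by opposite signs favours this order, so it is no separate result.

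**Figure D5:**
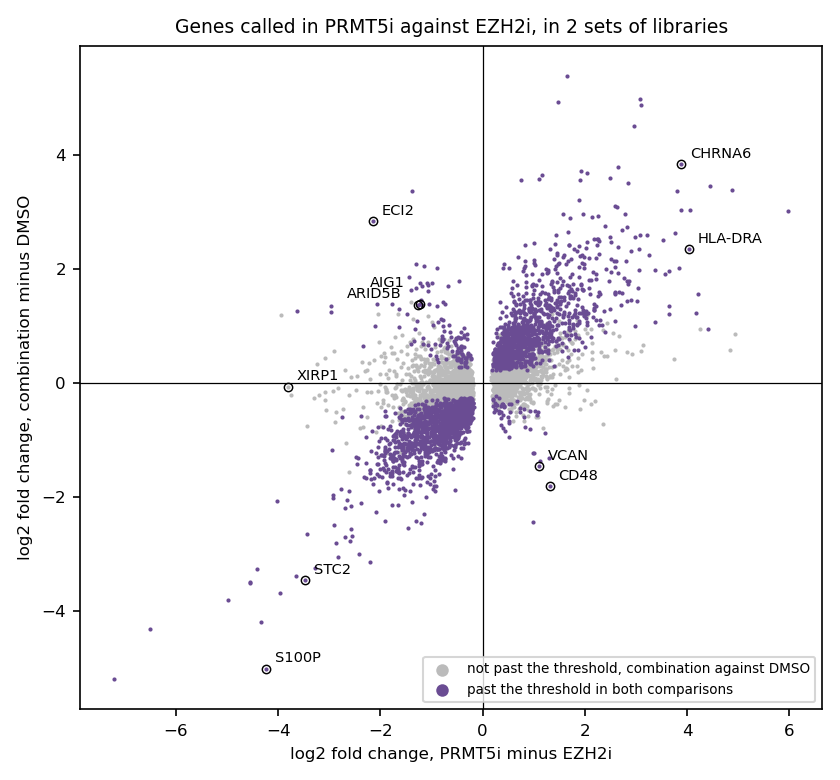
Each point is a gene that passed for PRMT5i against EZH2i, at that log2 fold change (horizontal) and at its log2 fold change in the combination against DMSO (vertical), from 8 other libraries, purple where it passed there too. Most purple points lie in the quadrants of equal sign (2719 of 2889), and the circled ECI2, ARID5B, AIG1, CD48 and VCAN lie in the others.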

How the data were processed

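Per the submitters' processing notes, the authors aligned paired-end reads with STAR 2.5.3 to GRCh38.p7 and estimated expected counts per gene with RSEM. Whether strand was used in counting is not stated there. The deposited table holds 60669 genes and 16 libraries in the unit of expected counts, 12.0% of them not whole, and these were rounded. edgeR 4.0.16 (R 4.3.3) gave the tests: TMM factors, filterByExpr, the quasi-likelihood F-test on the 8 PRMT5i and EZH2i libraries alone, and Benjamini-Hochberg adjustment across every gene in the fit (threshold 0.05). The combination against DMSO was fitted separately in the same way. CPM levels use TMM factors from all 16 libraries, and log2 CPM a prior count of 2. The steps were also tested on simulated data.

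Gene positions and overlaps come from GENCODE v29 (GRCh38), matched for 15636 of the genes tested, and promoters from RefSeq (GRCh38.p14, the first listed start of each gene), found for 10566 of them. Motifs were searched on both strands.

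Named genes were EZH2 and PRMT5; the 12 genes per direction with the largest fold (3 for other biotypes) whose higher group averaged 5 CPM or more and whose libraries did not overlap; the smallest p per direction of some lists; and the 5 largest opposite to the combination. Further list members were named after their values were seen. The members and the 53 lists were chosen with earlier results of these data known. Alternatives were other scalings, DESeq2 1.42.0, other filters, all 16 libraries, terms for replicates, GC content, and leaving out each library. A bulk library limits precision through its depth of 33931922 to 51408799 counts and through the 4 replicates a group.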

Additional observations from a re-analysis of the deposited data

Results flagged for a closer look

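In 15 of 428 groups of 4 libraries (107 genes, 4 groups each) one library lay far from the other 3, by Dixon's 95% criterion for 4 values; chance flags about 1 group in 20. DMSO replicate 1 gave 4 of them. It had the lowest EZH2, 21.5 CPM against 42.4 to 43.8 in the other DMSO libraries, and the lowest EGR1, 4.05 against 4.96 to 5.01. It had the highest ECI2, 1.52 against 1.16 to 1.22, and the highest AIG1, 16.9 against 12 to 12.7. DMSO replicate 2 had the highest SCD, 925 CPM against 805 to 813, and the lowest S100A9, 0.405 against 0.780 to 0.849.

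Among EZH2i libraries, replicate 1 had the highest FCGR2A (49.4 against 43.3 to 43.8 CPM), replicate 2 the lowest IGKC (0.924 against 1.31 to 1.39), replicate 3 the lowest FADS1 (94.5 against 108 to 109) and replicate 4 the lowest HLA-DMB (0.172 against 0.301 to 0.314). Among PRMT5i libraries, replicate 1 had the highest HOXA5 (7.14 against 6.15 to 6.26 CPM), replicate 2 the highest SCD (499 against 476 to 479), replicate 3 the highest ATF4 (222 against 209 to 211) and replicate 4 the highest TLR2 (78.2 against 67.3 to 69). Replicate 4 of the combination had the lowest CIITA, 3.20 against 3.95 to 4.02 CPM.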

How the results depend on the processing

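The 6328 genes past the threshold were 6230 to 6715 with total counts, RLE, DESeq2 or no filter, 4849 with a 5 CPM filter, 5870 with all 16 libraries, 6603 with a term for replicates 1 and 2 against 3 and 4, and 7957 with a GC correction. Pairs alone gave 3516 (1533 higher, 1983 lower; replicates 1 and 2) and 3523 (1647 and 1876; replicates 3 and 4), where 4 of the 8 libraries entered. The 5 CPM filter, which tests fewer genes, gave 771 genes, against 1640, with a difference of at least 1. Leaving out each library gave 5332 to 7153 genes, 2311 to 3438 higher, 2854 to 3715 lower, 1635 to 1820 by at least 1, and 588 to 678 list members (638 with all 8). Over the called genes named in the text, 1228 of the values with a library left out kept their direction and call and 36 lost the call. Under the other settings 1837 kept both and 38 lost the call, and 0 changed sign. Many of these genes were named for large differences or small p, and most fits share libraries with the main one. Few changes could therefore show.

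With the replicate number as a block 6556 genes passed, and 8124 with the block and a GC correction. The number pairs nothing that the labels state: deviations of equally numbered libraries correlated at −0.03, 0.17, 0.14 and 0.19, and not every library correlated best with its own number.

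For the combination against DMSO, 4737 genes passed and 3655 under the replicate block. Total counts gave 1579 lower, the 5 CPM filter 503 by at least 1, and replicates 3 and 4 gave 7360 (3596 higher, 3764 lower). Within replicates 1 and 2, edgeR called 0 (0 higher, 0 lower, 0 by at least 1), with 2619 at an unadjusted p of at most 0.05; DESeq2 was not run within pairs, and the cause was not tested. Leaving out a library gave 3414 to 6691 genes, 1593 to 3359 higher, 1705 to 3332 lower and 1187 to 1609 by at least 1. For the shares that follow, leaving out a library and the value for DMSO with differences of at least 1 were chosen after seeing the data. The same-sign share was 87.9% for differences of at least 1, 94.1% past both thresholds, and 75.7% to 84.5% with a library left out (lowest without DMSO replicate 2, highest without DMSO replicate 1). The share with the combination nearer to PRMT5i was 83.2% for differences of at least 1 and 79.8% to 82.3% with a library left out. DMSO lay nearer to EZH2i in 82.1% for differences of at least 1, and in 67.1% to 80.2% with a library left out. The cause of these moves was not tested.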
